A study of Mus musculus with 10 samples.

Results

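The genes described here serve amino acid supply and protein folding under stress. The set is a named list of 39 mouse genes: the transcription factor ATF4 and genes it is known to drive, enzymes of serine, one-carbon and proline synthesis, amino acid transporters, tRNA synthetases, and the sensors, chaperones and degradation factors of the unfolded protein response. A probe set with exactly 1 gene symbol represented 37 of them, out of 22180 genes measured that way. Aars and Pdia4 had none and are not analysed here. The list was chosen by function, but by people who knew earlier results of these data.

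RNA was measured on 10 arrays, 1 for each culture of wild-type CD4-positive lymphocytes taken from Balb/c spleens (female animals, 10 to 14 weeks old). Every culture was stimulated through the T cell receptor and its costimulatory partner with anti-CD3 (4 µg/ml) plus anti-CD28 (30 ng/ml). Th0 cells (n = 3) received nothing else and are the control. Th2 cells (n = 3) also received IL-4 (100 ng/ml), and Th17 cells (n = 4) IL-6 (20 ng/ml), TGFβ (5 ng/ml) and IL-23 (10 ng/ml). Both of these groups, and not Th0, also received an antibody against IFNγ (10 µg/ml), so the comparisons with Th0 differ in that antibody as well as in cytokines. Medium was renewed at 72 h. Replicates are titled as biological. Separate animals are not stated, and p-values cover the spread among these cultures alone.

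When amino acids run short, uncharged tRNA activates the kinase GCN2. When unfolded proteins collect in the endoplasmic reticulum, the kinase PERK is activated. Both phosphorylate the initiation factor eIF2, which slows most translation but raises that of ATF4, and ATF4 then drives genes for amino acid uptake, amino acid synthesis and tRNA charging. The endoplasmic reticulum has further sensors of its own: IRE1, encoded by Ern1, splices the mRNA of Xbp1, and ATF6 is cut to release a factor that drives chaperone genes. Activated T cells are known to need amino acid uptake and serine-derived one-carbon units to grow and divide.

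Values are log2 signals, so a difference of 1 is a 2-fold change. Levels are compared between arrays for 1 gene, never between genes, because probe sets differ in brightness. A gene was called when its p, adjusted over all genes tested in limma, was under 0.05. In all 3 comparisons 0 of the 37 genes were called. The tests called 0% of all genes between Th2 and Th0, 0.104% between Th17 and Th0 and 0.0766% between Th17 and Th2. The lowest adjusted p of any listed gene was 0.767 for Th2 against Th0, 0.928 for Th17 against Th0 and 0.676 for Th17 against Th2. What follows therefore gives values and their spread, and no difference below passed the test.

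The arrays of a group were not alike. On the first principal component, which held 35.8% of the variance over all genes, Th2 replicate 2 (38.8), Th2 replicate 3 (55.8) and Th17 replicate 4 (37.5) lay apart from the other 7 arrays, which were at -0.96 or lower. The mean of 25 cell cycle genes was 6.18 and 6.21 on these Th2 arrays, 6.46 on Th17 replicate 4 and 6.31 on Th17 replicate 2, and between 6.93 and 7.71 elsewhere. T cell markers averaged 8.66 on Th2 replicate 2, 8.79 on Th2 replicate 3 and 8.79 on Th17 replicate 4, and 9.15 to 9.73 on the other 7 arrays, with Cd3e at 9.36 or more on all 10. Markers of basophils and mast cells averaged 6.70 on Th0 replicate 1, 5.52 on Th17 replicate 2 and 5.56 on Th17 replicate 3, against 4.17 or less elsewhere. Of 7 listed erythroid and platelet markers only the platelet genes Pf4, Ppbp and Itga2b were measured. Their mean was 7.20 on Th0 replicate 1, the highest of the arrays, and 3.48, 3.71 and 3.25 on Th2 replicate 2, Th2 replicate 3 and Th17 replicate 4, the lowest. It was 4.48 to 5.99 on the other 6. In bulk cultures, fewer cells of a type and less RNA per cell cannot be told apart. The part of these features in the differences below was not tested.

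Some promoters of the listed genes carry sequences through which these pathways are known to act. The RefSeq promoter table (GRCm38.p6, 250 bases before to 50 after a start site) had 34 promoters for 32 of the 37 genes; Atf6, Nars, Slc1a5, Slc7a5 and Wars had no entry in it. The core of the element bound by ATF4 with C/EBP partners, TGATGNAA on either strand, occurred in 8 of the 34 (23.5%) and in 3.97% of all 32851 promoters in the table. The genes were Asns, Chac1, Trib3, Slc7a11 with 2 matches, Slc1a4, Gars, Iars and Herpud1. The endoplasmic reticulum stress element, CCAAT followed after any 9 bases by CCACG on either strand, occurred in 6 of the 34 (17.6%) and in 0.119% of all promoters. All 6 belong to chaperones of the endoplasmic reticulum: Hspa5, Hsp90b1 with 2 matches, Calr, Canx, Pdia6 and Creld2. No promoter held both motifs, so no match of either overlapped a match of the other. A match describes the letters only, not a bound site. The list was chosen for these pathways, so its higher shares are descriptions with no test.

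The matched stretches of 4 genes with the ATF4-type core are shown because they cover a target enzyme, a glutathione-degrading enzyme, a transporter and a tRNA synthetase. Each is written 5′ to 3′ on the gene's own strand and ends before the start site, with the core in capitals. It reads TGATGNAA on the gene's strand in Asns (chr6:7693210-7693267, minus strand) and in the first match of Slc7a11 (chr3:50443618-50443714, minus strand). In Chac1 (chr2:119351014-119351091, plus strand), Gars (chr6:55037936-55038000, plus strand) and the second match of Slc7a11 it lies on the opposite strand. In Iars, Trib3 and Slc1a4 the match lies at or after the start site, and the sequence is not shown.
Asns: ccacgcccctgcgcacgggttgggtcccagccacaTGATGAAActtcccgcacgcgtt
Chac1: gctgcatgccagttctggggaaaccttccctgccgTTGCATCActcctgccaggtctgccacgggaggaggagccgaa
Slc7a11: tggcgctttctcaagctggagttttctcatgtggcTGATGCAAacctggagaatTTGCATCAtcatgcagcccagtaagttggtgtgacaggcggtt
Gars: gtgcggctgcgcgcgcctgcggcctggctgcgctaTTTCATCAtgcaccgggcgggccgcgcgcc

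The endoplasmic reticulum stress elements of 3 chaperone genes are shown because these genes share the motif and yet differed widely in how much they varied between arrays. The capitals span the whole element. It lies on the gene's own strand in Hspa5 (chr2:34771990-34772078, plus strand) and Canx (chr11:50325765-50325853, minus strand). Hsp90b1 (chr10:86705498-86705691, minus strand) has 1 element on each strand.
Hspa5: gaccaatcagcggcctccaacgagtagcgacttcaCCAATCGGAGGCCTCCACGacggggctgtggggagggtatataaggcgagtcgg
Canx: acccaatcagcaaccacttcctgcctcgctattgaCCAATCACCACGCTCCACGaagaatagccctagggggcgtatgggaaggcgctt
Hsp90b1: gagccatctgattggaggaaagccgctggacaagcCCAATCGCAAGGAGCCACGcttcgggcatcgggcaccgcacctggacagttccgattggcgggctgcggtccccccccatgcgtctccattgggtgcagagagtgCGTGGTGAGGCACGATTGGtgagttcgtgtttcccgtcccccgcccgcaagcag

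**Figure D1:**
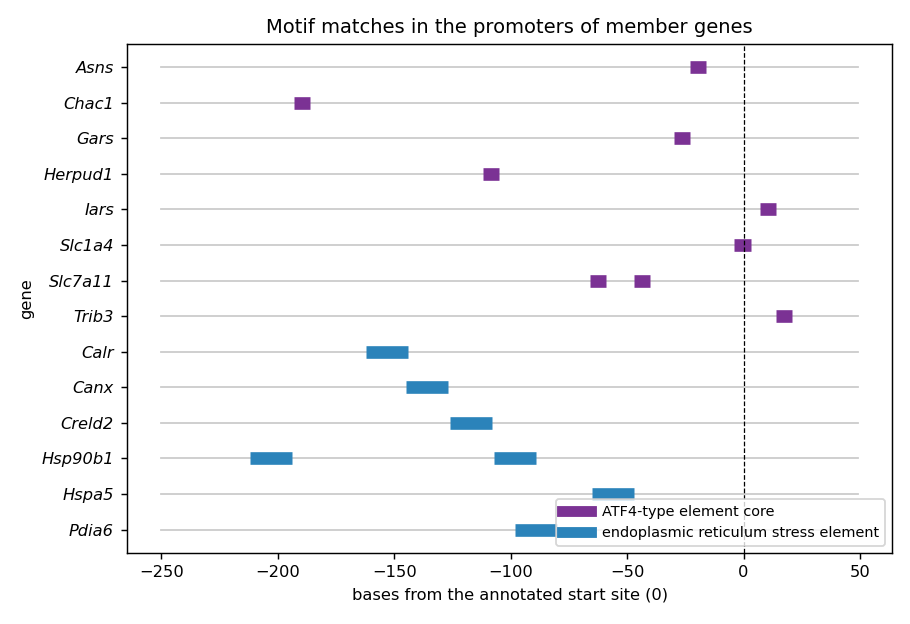
Positions of motif matches in the promoters of listed genes, as bases from the annotated start site (dashed line at 0), with 1 grey line for each promoter. The 9 matches of the ATF4-type core (8 genes) lie between -193 and 21, and the 7 matches of the endoplasmic reticulum stress element (6 genes) all lie before the start site, between -212 and -47.

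Between Th2 and Th0, the genes for amino acid uptake, amino acid synthesis and tRNA charging had mostly higher means in Th2, and the chaperones of the endoplasmic reticulum were divided. Of the 37 genes, 28 had a higher mean in Th2, with a median difference of 0.36, while 47.7% of all genes tested were higher, with a median of -0.01. By role, this held for 6 of 6 ATF4 targets and stress factors (median 0.42), 7 of 7 amino acid transporters (0.63), 4 of 6 synthesis enzymes (0.52), 4 of 5 tRNA synthetases (0.48) and 2 of 3 unfolded protein sensors and factors (0.23). Of the chaperones and degradation factors 5 of 10 were higher, with a median of 0.00. In limma, 9 of the 37 genes were higher and 2 lower in Th2 at an unadjusted p under 0.05, where 3.36% and 2.98% of all genes were. The 9 were Atf4, Sesn2, Aldh18a1, Slc7a1, Slc1a4, Slc38a2, Nars, Iars and Dnajb9, and the 2 were Edem1 and Sdf2l1.

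That count rested in part on single arrays. It was 3 higher without Th2 replicate 2, 5 without Th0 replicate 1, 15 without Th0 replicate 3 and 14 without Th2 replicate 3, with 1.76%, 2.56%, 2.80% and 3.32% of all genes. Without the 3 arrays apart on the first component, which leaves Th2 replicate 1 as the only Th2 array, it was 4, with 2.83% of all genes. With array weights 16 of the 37 were higher and 5 lower in Th2, with 8.09% and 8.79% of all genes. Among the 33 listed genes with a mean of at least 5 it was 7 higher and 2 lower, with 5.47% and 4.37% of all such genes. The median difference over the 37 genes was 0.22 without Th2 replicate 2 and ran from 0.28 to 0.56 when any other array was left out.

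Th2 replicate 2 gave the highest value of the 10 arrays for 18 of the 37 genes (48.6%). Over all genes it was the highest array for 12.1%, and over the 6250 genes with a mean of at least 5 for 20.0%. The 18 comprised 6 of the 7 transporters, 4 of the 6 ATF4 targets and stress factors, 2 synthesis enzymes, 2 tRNA synthetases, Atf6 and Ern1, and the chaperone genes Hspa5 and Dnajb9. Th0 replicate 1 gave the lowest value for 12 genes (32.4%), against 10.0% of all genes and 18.4% of those with a mean of at least 5. It was also the array with the highest basophil and mast cell markers and the highest platelet markers, and their part in its low values was not tested.

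**Figure D2:**
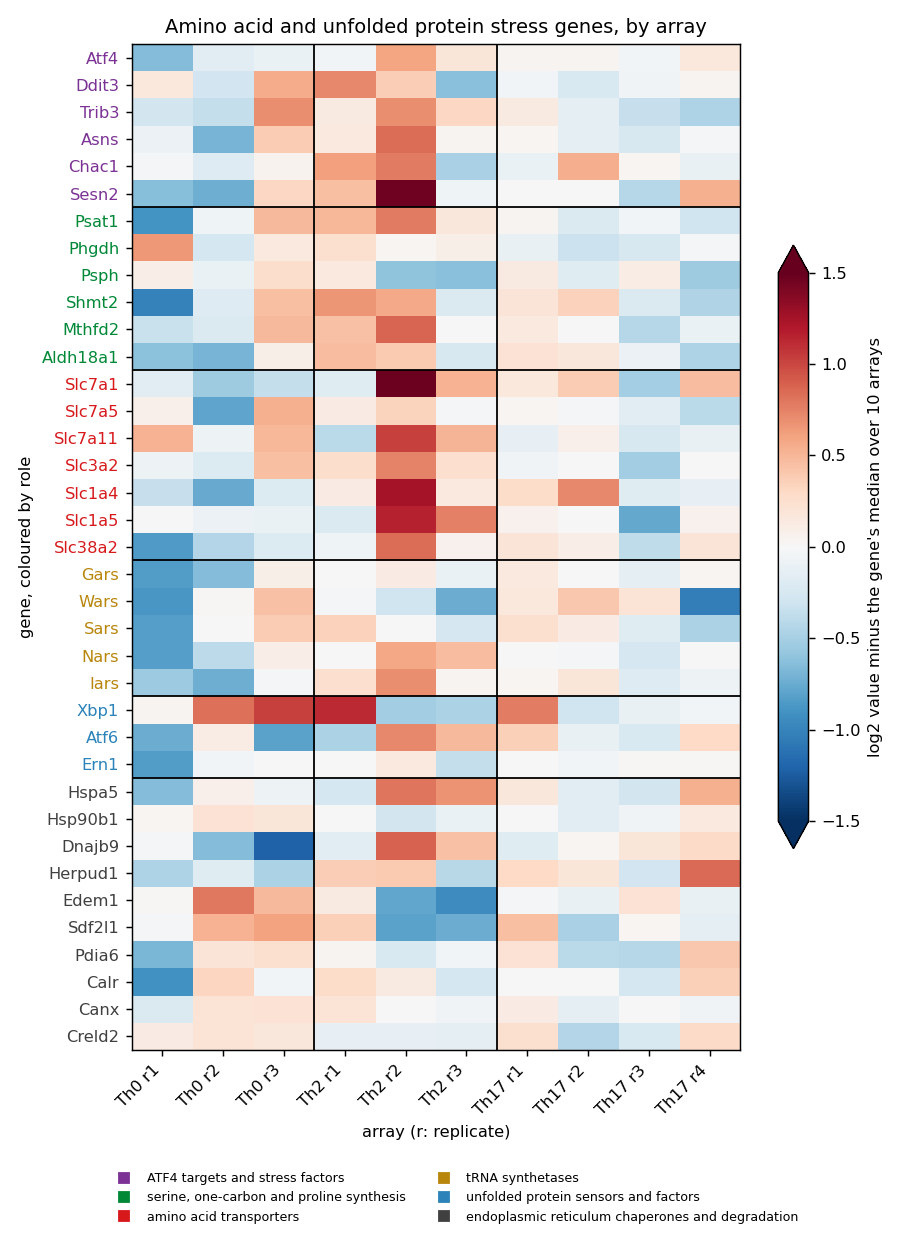
Value of each of the 37 genes on each array, as log2 value minus the gene's median over the 10 arrays (colour, cut at 1.5 in either direction), with genes grouped and coloured by role and groups separated by vertical lines. Th2 replicate 2 is the highest array for 18 genes, most of all among the transporters, and Th0 replicate 1 the lowest for 12.

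Over the 37 genes the median range across arrays was wider than over all genes, and the median share of a gene's variance that lay between the groups was larger. The former was 1.35 against 0.83, and the latter 35.3% against 19.1%. Both are descriptions, with no test. The comparison was not matched for signal: a mean of at least 5 held for 33 of the 37 genes and for 6250 of all 22180. The part of signal level in it was not tested. Of the listed genes, Trib3, Chac1, Slc7a11 and Slc1a4 had a mean under 5. The table carries no detection call, so whether they were above background is not known.

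Among the ATF4 targets and stress factors, Atf4 itself was lowest in Th0. It was 8.83, 9.31 and 9.38 on Th0 replicates 1 to 3, 9.44, 10.07 and 9.65 on the Th2 arrays, and 9.52, 9.51, 9.43 and 9.63 on the Th17 arrays. Every Th2 and every Th17 array was above every Th0 array, and the Th2 and Th17 ranges overlapped. The difference was 0.55 ± 0.20 (SE) for Th2 against Th0, 1.46-fold, with an unadjusted p of 0.019 and an adjusted p of 0.767 in limma, and 0.35 ± 0.19 for Th17 against Th0, which was 0.18 without Th0 replicate 1. ATF4 is regulated mainly through translation, which mRNA values do not show.

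Sesn2 encodes sestrin 2, a leucine sensor that holds back the growth kinase mTORC1. Its values were 4.77, 4.69 and 5.72 in Th0, 5.87, 6.87 and 5.35 in Th2, and 5.42, 5.41, 4.99 and 5.95 in Th17. Th2 replicate 2 stood highest, and Th2 replicate 3 was below Th0 replicate 3, so the groups overlapped despite a difference of 0.97 ± 0.39 between Th2 and Th0 (unadjusted p 0.032). Without Th2 replicate 2 that difference was 0.55.

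Asns encodes asparagine synthetase, a classic ATF4 target whose promoter core is printed above. It read 8.001, 7.39 and 8.46 in Th0, 8.23, 8.92 and 8.12 in Th2, and 8.12, 7.95, 7.84 and 8.05 in Th17. The Th17 arrays lay close together and all were below the Th2 arrays. The gap was narrow, from 8.117 on Th17 replicate 1 to 8.124 on Th2 replicate 3. The Th17 mean was lower by 0.44 ± 0.26, and by 0.19 without Th2 replicate 2, while Th0 overlapped both groups. Ddit3 encodes CHOP, the factor linked to cell death in prolonged stress. Its values were 7.77, 7.32 and 8.17 in Th0, 8.33, 7.97 and 6.98 in Th2, and 7.57, 7.38, 7.55 and 7.65 in Th17. The highest and the lowest of the 10 were both Th2 arrays, replicates 1 and 3, and the means of Th2 and Th0 differed by 0.01 ± 0.31. Trib3, a pseudokinase induced by ATF4 and CHOP, ranged over 1.16 and Chac1, which degrades glutathione, over 1.26, and both had higher means in Th2 than in Th0, by 0.36 each.

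Among the serine, one-carbon and proline enzymes, Psat1 and Shmt2 spread widely within Th0, with SDs of 0.69 and 0.73 (n = 3). Psph did not, with an SD of 0.18 there and 0.44 in Th2. Psat1, the aminotransferase of serine synthesis, was 5.49, 6.32 and 6.87 in Th0, 6.88, 7.17 and 6.56 in Th2, and 6.42, 6.17, 6.34 and 6.08 in Th17. All Th2 arrays were above all Th17 arrays, by 0.61 ± 0.28 between the means (unadjusted p 0.050), and Th0 replicates ran from below both to within the Th2 range. Shmt2, the mitochondrial enzyme that splits serine to yield one-carbon units, was 7.70, 8.52 and 9.17 in Th0, 9.38, 9.29 and 8.50 in Th2, and 8.91, 9.06, 8.50 and 8.27 in Th17. The groups overlapped, and Th0 replicate 1 was the lowest array for both enzymes.

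Aldh18a1 makes the precursor of proline. It read 6.01, 5.92 and 6.71 in Th0, 7.08, 7.01 and 6.37 in Th2, and 6.84, 6.79, 6.53 and 6.16 in Th17, with overlap through Th0 replicate 3 and Th2 replicate 3. The Th2 mean was 0.61 ± 0.27 above Th0 (unadjusted p 0.047). Mthfd2, the mitochondrial one-carbon enzyme that follows Shmt2, was 0.45 ± 0.27 higher in Th2 than in Th0. Phgdh, the first enzyme of serine synthesis, and Psph, the last, did not share that sign: their Th2 means were below Th0 by 0.06 ± 0.21 and 0.45 ± 0.24. Phgdh was highest on Th0 replicate 1, the array on which Psat1 and Shmt2 were lowest, and its Th17 arrays were all below its Th2 arrays.

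Amino acid transporters showed the largest single-array feature. Their median deviation from each gene's own median was 1.03 on Th2 replicate 2 and 0.25 on Th2 replicate 3, and between -0.44 and 0.07 on the other 8 arrays. Slc7a1, the carrier of arginine and lysine, was 7.66, 7.29 and 7.46 in Th0, 7.63, 9.29 and 8.34 in Th2, and 7.98, 8.20, 7.30 and 8.28 in Th17. Th2 replicate 1 lay within the Th0 range while Th2 replicate 2 was the highest of all. The Th2 mean was 0.95 ± 0.37 above Th0, 1.93-fold (unadjusted p 0.027), and 0.52 above it without Th2 replicate 2. Without the 3 arrays apart on the first component the difference was 0.16.

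Slc1a4, a carrier of small neutral amino acids such as serine and alanine, was 4.34, 3.93 and 4.48 in Th0, 4.81, 5.94 and 4.83 in Th2, and 4.97, 5.41, 4.51 and 4.56 in Th17. Every Th2 and Th17 array was above every Th0 array, by 0.94 ± 0.33 (unadjusted p 0.015) and 0.61 ± 0.31 between the means. The former was 0.57 without Th2 replicate 2. Slc38a2 encodes SNAT2, a sodium-coupled carrier of small neutral amino acids that is induced by amino acid lack. It was 7.77, 8.19 and 8.42 in Th0, 8.56, 9.46 and 8.69 in Th2, and 8.82, 8.72, 8.25 and 8.82 in Th17. All Th2 arrays exceeded all Th0 arrays, by 0.78 ± 0.26 between the means (1.71-fold, unadjusted p 0.014), and by 0.50 without Th2 replicate 2. Of the Th17 arrays, only replicate 3 fell within the Th0 range.

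Of the remaining transporters, Slc3a2 and Slc1a5 had unadjusted p-values under 0.05 in limma between Th17 and Th2. Both were lowest on Th17 replicate 3, and neither p was under 0.05 without that array or without Th2 replicate 2. Slc3a2 encodes the heavy chain shared by several amino acid exchangers, among them those whose light chains are Slc7a5 and Slc7a11. It was lower in Th17 than in Th2 on every array, by 0.56 ± 0.21 between the means (unadjusted p 0.022, adjusted p 0.676). Slc1a5, the glutamine carrier, was 0.73 ± 0.30 lower in Th17 than in Th2 (unadjusted p 0.036), with Th2 replicate 1 inside the Th17 range. A second probe set of Slc1a5 gave a difference of -0.80, but for Th17 against Th0 the probe sets differed in sign, at -0.10 and 0.34. For Th2 against Th0 the probe set used gave 0.63 and the second 1.14. Slc7a5, which imports leucine and other large neutral amino acids, had a difference of 0.20 ± 0.28 between Th2 and Th0, and the cystine importer Slc7a11 one of 0.06 ± 0.31, where a second probe set of Slc7a11 gave 0.31.

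**Figure D3:**
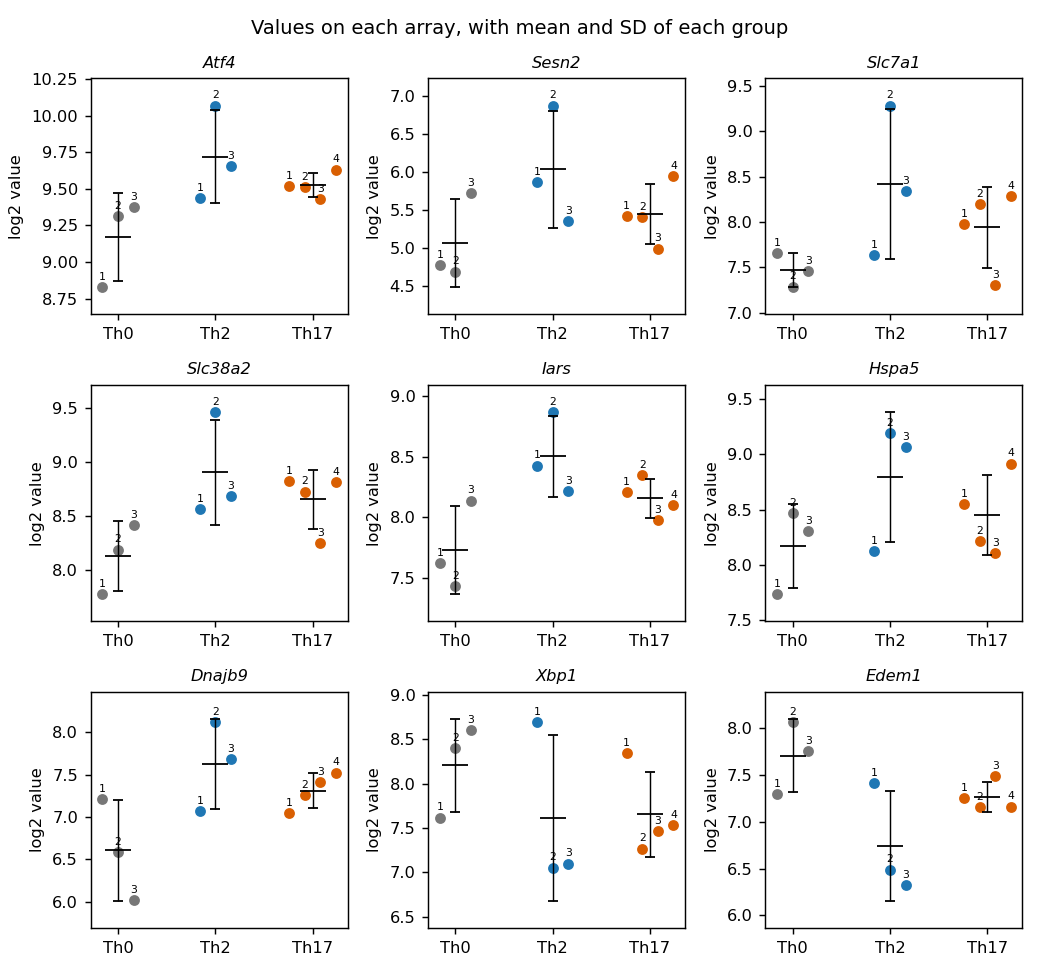
Log2 values of 9 listed genes on each array (points, numbered by replicate), with the mean and SD of each group (black). Th2 replicate 2 is the highest point for Atf4, Sesn2, Slc7a1, Slc38a2, Iars, Hspa5 and Dnajb9, while Th2 replicates 2 and 3 are the lowest 2 points for Xbp1 and Edem1.

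The tRNA synthetases load amino acids onto tRNA. Iars, for isoleucine, was 7.62, 7.43 and 8.14 in Th0, 8.43, 8.87 and 8.21 in Th2, and 8.21, 8.35, 7.97 and 8.10 in Th17. All Th2 arrays were above all Th0 arrays. The difference of 0.77 ± 0.22 (1.71-fold) had the lowest unadjusted p of all listed genes in this comparison, 0.0051, with an adjusted p of 0.767 in limma.

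Nars, for asparagine, was 8.43, 8.87 and 9.36 in Th0, 9.26, 9.84 and 9.73 in Th2, and 9.26, 9.24, 9.003 and 9.26 in Th17. Only Th0 replicate 3 reached into the Th2 range, and the Th2 mean was 0.72 ± 0.24 above Th0 (unadjusted p 0.011). Gars, for glycine, had means of 8.26 ± 0.49 (SD, n = 3) in Th0, 8.74 ± 0.12 (n = 3) in Th2 and 8.74 ± 0.11 (n = 4) in Th17. Its Th17 mean was 0.48 ± 0.20 above Th0 (unadjusted p 0.040), and Th0 replicate 3 lay within the range of both other groups.

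Wars, for tryptophan, stood aside. It was 6.97, 7.86 and 8.29 in Th0, 7.83, 7.55 and 7.10 in Th2, and 8.004, 8.25, 8.05 and 6.81 in Th17. Its lowest values came from 1 array of Th17, 1 of Th0 and 1 of Th2, and the difference between Th2 and Th0 was -0.21 ± 0.41. Wars is known to respond to interferon as well as to ATF4. Sars, for serine, differed by 0.18 ± 0.30 between Th2 and Th0, and Th0 replicate 1 was its lowest array at 7.73.

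Sensors and factors of the unfolded protein response did not move as a group. Xbp1 encodes the factor that IRE1 activates by splicing. It was 7.62, 8.39 and 8.60 in Th0, 8.69, 7.05 and 7.10 in Th2, and 8.35, 7.27, 7.46 and 7.53 in Th17. The highest and the lowest array were both Th2, and the SD within Th2 was 0.93 (n = 3). Differences from Th0 were -0.59 ± 0.44 for Th2 and -0.55 ± 0.41 for Th17, and the first was 0.49 without the 3 arrays apart on the first component. Leaving out single arrays moved the first between -1.13 (without Th2 replicate 1) and -0.31 (without Th2 replicate 2). Plasma cells carry much Xbp1. The mean of their 7 measured markers, of 8 listed, ran from 3.78 to 4.80, with the top values on Th17 replicate 1 (4.80) and then Th0 replicate 2 (4.79). Of these markers, Sdc1 was 3.22 to 3.75 on all arrays, and Jchain was 6.78 on Th17 replicate 1, 5.15 on Th0 replicate 2 and 3.54 or less elsewhere. Mzb1 was 4.43 and 5.33 on those arrays and 3.76 or less elsewhere. Prdm1 was 6.93 on Th0 replicate 2 and 5.30 to 5.66 elsewhere, and Derl3 and Tnfrsf17 were at most 4.13 and 3.98. Pou2af1 was highest on Th2 replicates 2 and 3, at 8.32 and 7.13, the arrays on which Xbp1 was lowest. The part of these markers in the Xbp1 values was not tested. Signal from the probe set does not tell spliced from unspliced Xbp1.

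Atf6 ran the other way. It was 5.58, 6.43 and 5.52 in Th0, 5.84, 7.04 and 6.81 in Th2, and 6.68, 6.21, 6.09 and 6.61 in Th17. Th2 replicates 2 and 3 were its highest arrays, and Th2 replicate 1 fell within the Th0 range. The Th2 mean was 0.72 ± 0.33 above Th0 (unadjusted p 0.053), and this difference was 1.0798 without Th2 replicate 1 and -0.0005 without the 3 arrays apart. Ern1 was 4.91, 5.71 and 5.75 in Th0, 5.76, 5.90 and 5.39 in Th2, and 5.74, 5.71, 5.76 and 5.77 in Th17. Apart from Th0 replicate 1 and Th2 replicate 3 its arrays lay between 5.71 and 5.90.

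The chaperone and degradation genes of the endoplasmic reticulum were split on Th2 replicates 2 and 3. Hspa5 encodes BiP, the main chaperone of that compartment and the usual marker of the unfolded protein response. Its values were 7.74, 8.47 and 8.31 in Th0, 8.12, 9.19 and 9.06 in Th2, and 8.55, 8.22, 8.11 and 8.91 in Th17. The 3 highest were Th2 replicates 2 and 3 and Th17 replicate 4, the arrays apart on the first component, which were also among the 4 lowest in cell cycle genes. The difference between Th2 and Th0 was 0.62 ± 0.31 (unadjusted p 0.072) on all arrays and -0.05 without those 3. It was 0.41 without Th0 replicate 1 and 0.96 without Th2 replicate 1.

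Dnajb9 encodes ERdj4, a cochaperone of BiP that is an XBP1 target. It was 7.21, 6.59 and 6.02 in Th0, 7.07, 8.13 and 7.68 in Th2, and 7.05, 7.26, 7.42 and 7.53 in Th17. Th2 and Th17 overlapped with Th0 only through Th0 replicate 1. On the probe sets used, Dnajb9 had the largest difference of the 37 genes between Th2 and Th0, at 1.02 ± 0.32 (unadjusted p 0.0082 in limma). It also had the largest between Th17 and Th0, at 0.70 ± 0.30 (unadjusted p 0.036 in limma). The latter was 0.41 without Th0 replicate 3, and the former 0.46 without the 3 arrays apart on the first component. Herpud1, a degradation factor, followed with 0.64 ± 0.27 for Th17 against Th0 (unadjusted p 0.038).

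Edem1 directs misfolded glycoproteins to degradation and is another XBP1 target. It was 7.29, 8.07 and 7.75 in Th0, 7.41, 6.49 and 6.33 in Th2, and 7.25, 7.16, 7.49 and 7.16 in Th17. Th2 replicates 2 and 3 were the lowest arrays, as they were for Xbp1, while Th2 replicate 1 lay within the Th0 range. The Th2 mean was 0.96 ± 0.28 below Th0, 1.95-fold lower (unadjusted p 0.0057, adjusted p 0.767 in limma), and a second probe set gave -0.94. On the probe set used, the difference was -0.29 without the 3 arrays apart on the first component, which leaves Th2 replicate 1 alone. Left without Th2 replicate 1, limma called Edem1 with an adjusted p of 0.026, 1 of 431 genes called there. The adjusted p ranged from 0.026 to 0.998 over the 21 alternatives. Sdf2l1, a BiP-associated protein, was likewise lowest on Th2 replicates 2 and 3, at 6.26 and 6.33, and its Th2 mean was 0.77 ± 0.33 below Th0 (unadjusted p 0.041).

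Canx and Hsp90b1 varied least of the 37 genes. Canx, encoding the lectin chaperone calnexin, ranged over 0.44 on the 10 arrays and Hsp90b1, encoding GRP94, over 0.49, against 1.45 for Hspa5, although all 3 promoters carry the endoplasmic reticulum stress element shown above. The other genes with that element were Creld2, with a range of 0.73, Pdia6, a disulfide isomerase, with 1.09, and Calr, encoding calreticulin, with 1.27. Every Th2 array of Hsp90b1 and of Creld2 was below every Th0 array, by small differences of 0.27 ± 0.14 and 0.30 ± 0.20 between the means. Over the 37 genes the groups of Th2 and Th0 did not overlap for 4 with Th2 higher (Atf4, Slc1a4, Slc38a2 and Iars) and these 2 with Th2 lower, where 4.48% and 3.94% of all genes did so.

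**Figure D4:**
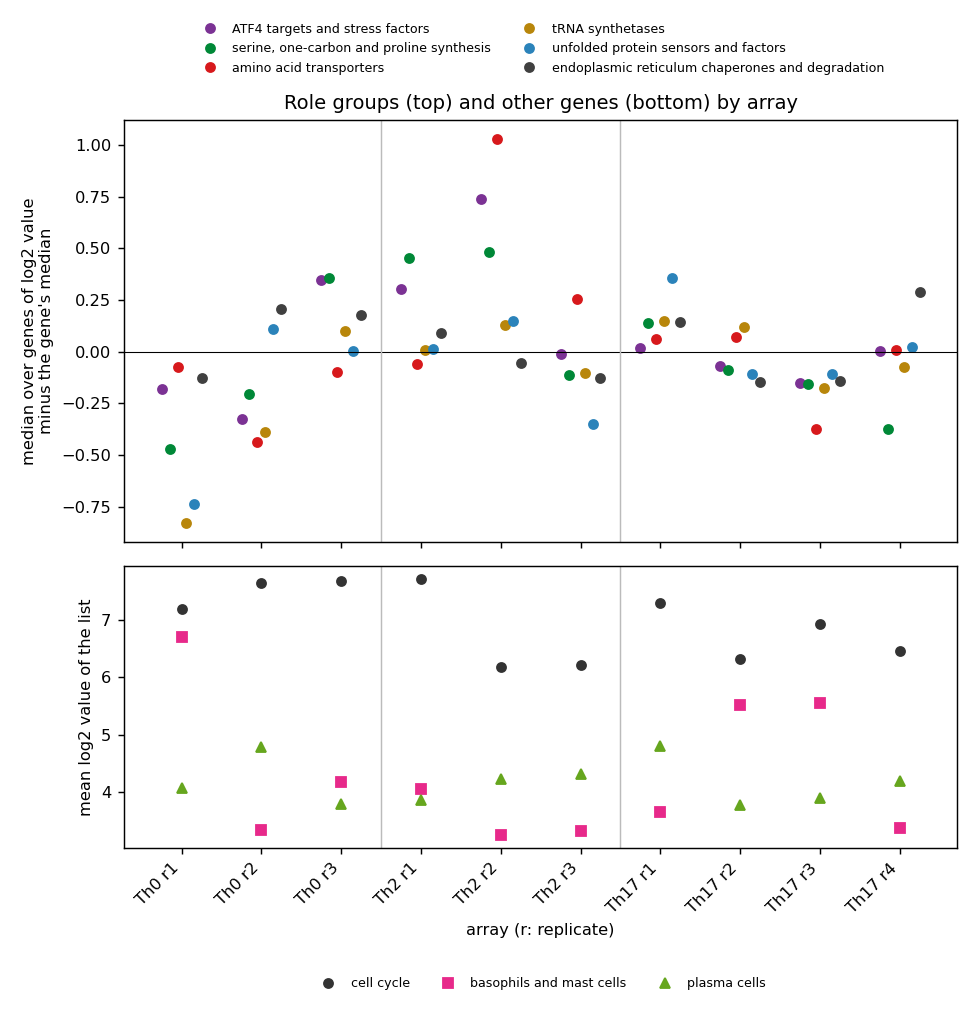
Top: median over the genes of each role group of the log2 value minus the gene's own median, for each array. Bottom: mean log2 value of 25 cell cycle genes and of the markers of basophils and mast cells and of plasma cells on the same arrays. Transporters reach 1.03 on Th2 replicate 2, tRNA synthetases -0.83 on Th0 replicate 1, where basophil and mast cell markers are at 6.70.

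Between Th17 and Th0 the median difference of the listed genes was small. A higher mean in Th17 was seen for 22 of 37 (59.5%), with a median difference of 0.08, against 46.8% and -0.02 for all genes. That small median depended on single arrays. It was -0.12 without Th0 replicate 1, with 16 of 37 higher, -0.0046 without Th17 replicate 1, with 18 higher, and 0.32 without Th0 replicate 3, with 25 higher. With array weights it was -0.03, with 18 higher. At an unadjusted p under 0.05, 3 were higher (8.1%: Gars, Dnajb9 and Herpud1) and 0 lower, where 2.50% and 2.67% of all genes were. The count higher was 0 without Th17 replicate 2 and 0 without Th17 replicate 4, with 2.19% and 2.71% of all genes. It was 1 without Th17 replicate 1 and 1 without Th0 replicate 1, with 2.20% and 2.07%. Without Th0 replicate 3 it was 5 and without Th2 replicate 2 it was 6, with 2.00% and 2.55%. The groups did not overlap for 2 with Th17 higher, Atf4 and Slc1a4, and for 0 with Th17 lower, where 3.22% and 4.35% of all genes did so. All 5 tRNA synthetases had a positive difference, with a median of 0.31, and the transporters a median of -0.08. For Wars and Sars the difference was 0.08 each, and for Wars it was -0.29 without Th0 replicate 1. The median deviation of the synthetases was lowest on that array, at -0.83. Of 13 other cytosolic tRNA synthetases, 8 had a higher mean in Th17 than in Th0.

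Between Th17 and Th2 most of the listed genes had the lower mean in Th17. A higher mean in Th17 was seen for 10 of 37, with a median of -0.24, against 48.4% and -0.01 for all genes. The lower mean in Th17 held for all 6 ATF4 targets and stress factors (median -0.33) and all 7 transporters (median -0.48). At an unadjusted p under 0.05, 0 were higher in Th17 and 2 lower, Slc3a2 and Slc1a5, where 3.18% and 3.07% of all genes were. The groups did not overlap for 0 with Th17 higher and 4 with Th17 lower, Asns, Psat1, Phgdh and Slc3a2, where 2.60% and 3.00% of all genes did so. Without Th2 replicate 2 the median was -0.09. The count lower at an unadjusted p under 0.05 was 0 without Th17 replicate 3 and 0 without Th2 replicate 2. Of all genes, 2.17% and 2.01% were lower in those fits. Without Th2 replicate 1, 3 were higher and 7 lower, with 8.06% and 6.16% of all genes. With array weights 3 of the 37 were higher and 16 lower in Th17, with 8.67% and 8.63% of all genes. Each pair of these comparisons shares a group, so their values are not independent.

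**Figure D5:**
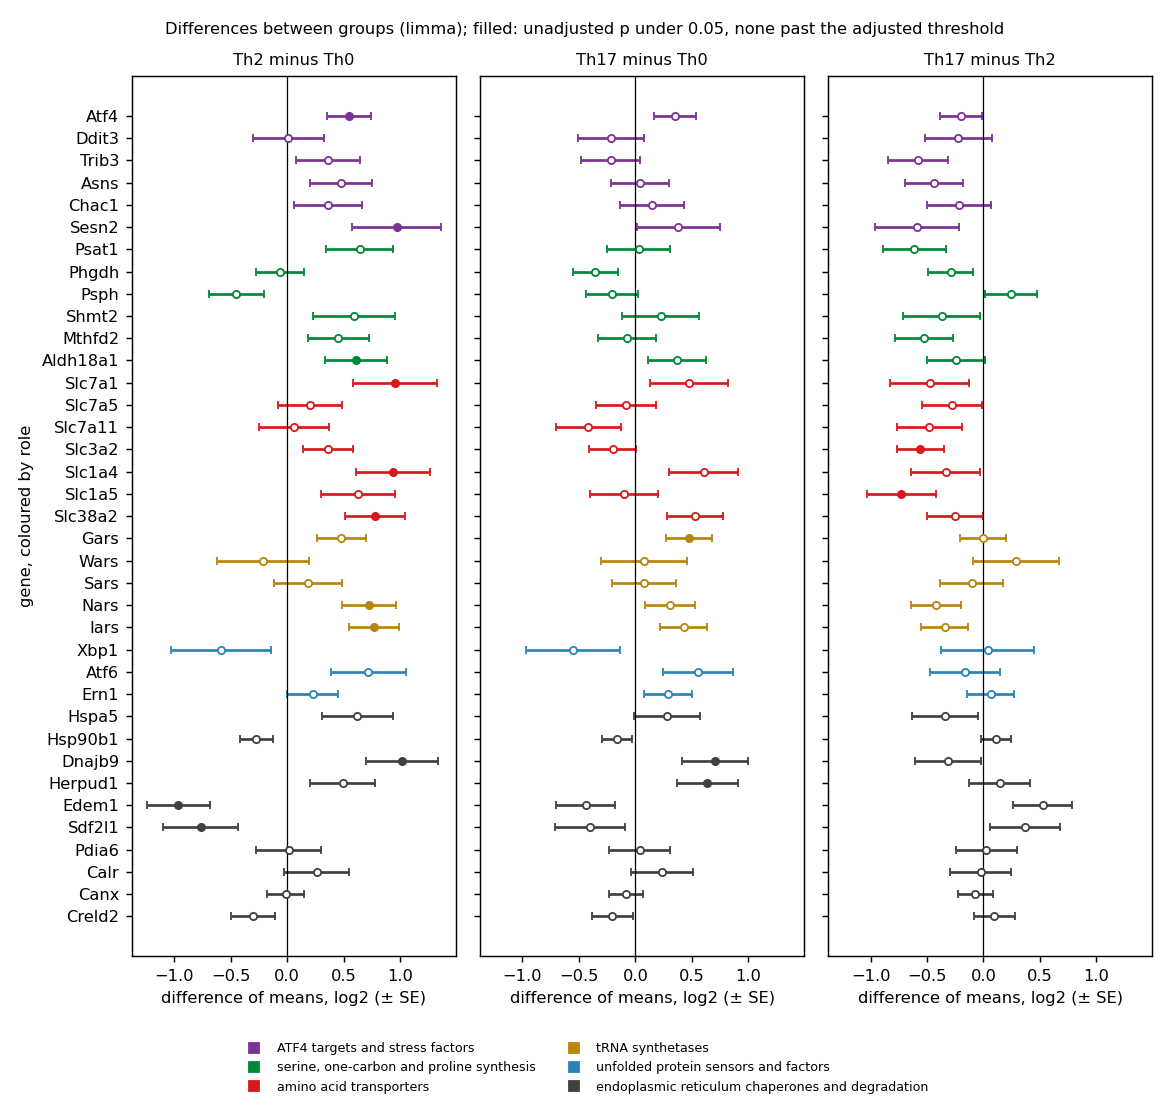
Difference of group means (log2, points) with its SE (bars) for the 37 genes in 3 comparisons, coloured by role and filled where limma's unadjusted p was under 0.05. In Th2 minus Th0, 9 filled points lie to the right and 2 to the left of 0, and no difference passed the adjusted threshold.

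Further genes of these pathways gave the same count of calls, 0 in each of 6 lists and each comparison. Of 13 other cytosolic tRNA synthetases, 12 had a higher mean in Th2 than in Th0 (median 0.28), led by Yars, for tyrosine, at 0.65 ± 0.27 (unadjusted p 0.034) and Lars, for leucine, at 0.66 ± 0.28 (unadjusted p 0.037). Of 15 other ATF4 and CHOP targets 7 were higher (median -0.06). Among them Cebpg, a C/EBP factor that pairs with ATF4, was 0.78 ± 0.32 higher in Th2 than in Th0 (unadjusted p 0.033). Atf5, a factor close to ATF4, was lower in Th17 than in Th2 on every array, by 0.62 ± 0.17 (unadjusted p 0.0042, adjusted p 0.463).

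Of 11 other amino acid transporters, 7 were higher in Th2 than in Th0 (median 0.16), and in Slc36a4 the 3 Th2 arrays lay close together. Slc36a4 encodes a carrier of proline and tryptophan. It was 7.86, 7.57 and 7.58 in Th0, 8.21, 8.37 and 8.12 in Th2, and 7.66, 7.44, 7.91 and 7.50 in Th17. Every Th2 array was above all arrays of the other groups, by 0.57 ± 0.17 from Th0 (unadjusted p 0.0063, adjusted p 0.767) and 0.61 ± 0.16 from Th17 (unadjusted p 0.0027, adjusted p 0.395). Slc7a3, another carrier of basic amino acids, was 0.91 ± 0.29 lower in Th17 than in Th2 (3.97 against 4.88, unadjusted p 0.0088 in limma). Its means were under 5, and whether it was above background is not known.

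Of 6 other serine and one-carbon enzymes, 3 were higher in Th2 than in Th0 (median 0.03). Shmt1, the cytosolic partner of Shmt2, was 7.47 and 6.74 on Th2 replicates 2 and 3 and between 5.40 and 6.14 on the other 8 arrays. Tyms, the thymidylate synthase used in DNA replication, was 4.80 and 5.26 on those 2 arrays and between 5.58 and 6.83 elsewhere. The mean of the cell cycle genes was lowest on them too, but that list includes Tyms. Of 5 genes for eIF2 kinases and phosphatases, 2 were higher in Th2 than in Th0 (median -0.10). Eif2ak2, encoding the RNA-activated kinase PKR, was 0.68 ± 0.28 lower in Th2 than in Th0 (3.13 against 3.80, unadjusted p 0.032 in limma). Eif2ak4, encoding GCN2, was 0.34 ± 0.15 lower in Th17 than in Th2 (3.93 against 4.27, unadjusted p 0.047 in limma). These means were all under 5, and whether the 2 genes were above background is not known. Of 26 other genes for folding and degradation in the endoplasmic reticulum 14 were higher in Th2 than in Th0, with a median of 0.02. In that list Syvn1, a ubiquitin ligase of the degradation pathway, was 0.48 ± 0.20 higher in Th17 than in Th0 (unadjusted p 0.034), and Edem2 was 0.51 ± 0.21 higher in Th17 than in Th2 (unadjusted p 0.032).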

How the data were processed

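Deposited log2 values came from RMA, which corrects background, normalizes by quantiles and summarizes probe sets; the authors ran it in Affymetrix Expression Console 1.3.0.187, per the submitters' processing notes. RMA compresses differences between weak genes. For the probe annotation, a genome build is not given in the sources. RNA was amplified with a whole-transcriptome kit and labelled with biotin, per the labels' protocols.

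Of 41345 probe sets, 23521 had 1 gene symbol in the platform table, 1814 had several and 16010 had none there. Each of the 22180 genes was represented by its brightest probe set on average, without a filter on low values. Of the listed genes, 3 had 2 probe sets. Using limma 3.58.1 in R 4.3.3 (lmFit and eBayes), 1 model of 3 group means took in all arrays, with 7 residual degrees of freedom. Two-sided p-values were adjusted (Benjamini-Hochberg) within a comparison across all genes, and calls were made at an adjusted p under 0.05. Errors are the SD over the arrays of a group or the SE of a difference. The number of arrays limits the precision. The procedure was tested on simulated independent genes with known differences in Th17, each larger than any difference of the listed genes. The simulation had no arrays apart, and it does not show whether differences of the size found here would be called.

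The listed genes, role groups, pathway lists and tests were chosen with earlier results of these data known. Values on every array are given for Atf4, Ddit3, Xbp1 and Hspa5 and, in each role group, for the 2 genes with the lowest p in any comparison and the 2 with the largest range. From each further pathway list the 2 genes with the lowest p are named. Motifs were searched by exact match in the promoter table. The alternatives changed the normalization, centring, choice of probe set, filter, array weights, variance prior, arrays in the fit and pairing, and left out each array.

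By the replicate numbers in the titles, correlations of same-numbered arrays' deviations from their group means ran from -0.31 to 0.30. The description of Th2 replicate 3 carries the number 4, and by that number it correlated at 0.49 with Th17 replicate 4. These arrays, like Th2 replicate 2, lay apart on the first component. Correlations of arrays with different numbers are not given, so neither numbering was tested as a pairing.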

Additional observations from a re-analysis of the deposited data

Results flagged for a closer look

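In a group of 4 arrays, a value was singled out when its gap to the nearest other array exceeded Dixon's limit at the 5% level. Only Th17 has 4 arrays. Of its 37 gene groups 5 held such a value, where chance alone gives about 1.85, and the genes are not independent of each other. On Th17 replicate 3, Slc3a2 was at 7.43 against 7.90 to 7.96 on the other Th17 arrays. The glutamine carrier Slc1a5 was at 7.49 there against 8.24 to 8.31, Slc38a2 at 8.25 against 8.72 to 8.82, and Nars at 9.003 against 9.24 to 9.26. These 4 were all low on 1 array, on which the median deviation of the transporters was -0.38. Wars was at 6.81 on Th17 replicate 4, against 8.004 to 8.25 on the others.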

How the results depend on the processing

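The count of listed genes called stayed at 0 for Th17 against Th0 and for Th17 against Th2 under all 21 alternatives. For Th2 against Th0 it was between 0 and 1 when each array was left out, with 1 (Edem1) only without Th2 replicate 1, and 0 under every other alternative. With the replicate block by title numbers 0, 8 and 11 of all genes were called in the 3 comparisons, with the block by description numbers 0, 5 and 5, and 0 listed genes under either. With array weights the lowest adjusted p of a listed gene was 0.086 for Th2 against Th0 and 0.062 for Th17 against Th2, and 0, 60 and 330 genes were called in all. Over the alternatives the count of all genes called ran from 0 to 431 for Th2 against Th0 (0 as reported), from 2 to 60 for Th17 against Th0 (23) and from 3 to 330 for Th17 against Th2 (17). Without Th2 replicate 1 it was 431, 36 and 298 in that order.
Of the 57 differences of genes given on every array (19 genes, 3 comparisons), 35 kept their sign under all alternatives run and 22 did not. Without the 3 arrays apart on the first component, the difference between Th2 and Th0 was 0.13 for Wars, 0.49 for Xbp1, -0.0005 for Atf6 and -0.048 for Hspa5. The difference between Th17 and Th2 was there 0.049 for Atf4, 0.19 for Slc7a1, 0.15 for Slc1a4, 0.036 for Slc38a2, -1.001 for Xbp1, 0.49 for Atf6, -0.019 for Ern1, 0.17 for Hspa5, 0.17 for Dnajb9 and -0.11 for Edem1. Without the 3 arrays where basophil and mast cell markers were highest, Ern1 was at -0.046 for Th2 against Th0, Psat1 at -0.34, Shmt2 at -0.25 and Wars at -0.67 for Th17 against Th0, and Wars at -0.085 and Atf6 at 0.083 for Th17 against Th2. With array weights Asns was at -0.060 and Psat1 at -0.14 for Th17 against Th0, and Ern1 at -0.054 for Th17 against Th2. Renewed quantile normalization gave -0.010 for Xbp1, Th17 against Th2, and the replicate block by description numbers -0.017 for the same and 0.23 for Wars, Th2 against Th0.
When each array was left out in turn, differences that crossed 0 ran for Th2 against Th0 from -0.27 to 0.40 (Ddit3), -0.58 to 0.079 (Wars) and -0.046 to 0.37 (Ern1). For Th17 against Th0 they ran from -0.24 to 0.29 (Asns), -0.34 to 0.35 (Psat1), -0.16 to 0.57 (Shmt2) and -0.29 to 0.40 (Wars). For Th17 against Th2 they ran from -0.61 to 0.061 (Ddit3), -0.52 to 0.038 (Slc1a4), -0.42 to 0.028 (Slc38a2), -0.24 to 0.58 (Xbp1), -0.52 to 0.075 (Atf6) and -0.081 to 0.17 (Ern1).
The alternatives without the 3 arrays apart and without those 3 richest in such markers were chosen after seeing the data. The former leaves 1 Th2 array, which is assumed to vary like the other groups. The cause of the reversals was not tested. Without a detection call, signal over background sets no known limit for the weak genes.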
